A study of Homo sapiens with 7 samples.

Results

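The mRNAs of 10 epithelial integrin subunits were followed in lung squamous carcinoma cells in which an shRNA targeted a deadenylase. These enzymes trim the poly(A) tails of mRNAs. The subunits were ITGA2, ITGA3, ITGA5, ITGA6, ITGAV, ITGB1, ITGB4, ITGB5, ITGB6 and ITGB8. They were picked by symbol, as every gene probe whose transcript accession belongs to one of these genes. This gave 11 probes, 1 per gene and 2 for ITGA6, out of 42309 probes and 19038 named genes. RNA came from NCI-H520, a human cell line derived from a lung squamous cell carcinoma, and was hybridised to 7 single-colour Agilent arrays. Each array was its own group: empty vector, non-target shRNA, and PARN, CNOT6, CNOT6L, CNOT7 and NOC shRNA (NOC is nocturnin, gene symbol NOCT). All 7 groups, controls included, received 6 µg of plasmid by liposome transfection. They were given puromycin at 6 µg/mL from 12 h and collected at 72 h, so selection and transfection are common to every array. The labels name 1 target accession for each shRNA, and give the CNOT6L and NOC shRNAs the same one, which is that of NOC. The accession given for CNOT6 lacks a digit and was read with a leading zero restored. Untransfected cells were not analysed here. No subunit separated the shRNA arrays from both control arrays. ITGA2, a collagen receptor subunit, was the only one called with a single shRNA, lower with that of PARN (0.482% of all probes lower). That call used a reading at background and was lost with quantile normalization. ITGA6, a laminin receptor subunit, was lowest with PARN and CNOT6 shRNA, as were 5.61% of all probes. This split was chosen after the values were seen, and on 1 ITGA6 probe the PARN array was lower by only 0.01.

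Integrins are cell-surface receptors made of an alpha and a beta subunit, which bind the extracellular matrix outside the cell and the actin or keratin cytoskeleton inside it. The pairing sets the ligand. ITGA3 with ITGB1 and ITGA6 with ITGB1 or ITGB4 bind laminins of the basement membrane, and ITGA6 with ITGB4 is the core of the hemidesmosome, which anchors basal epithelial cells. ITGA2 with ITGB1 binds collagen, and ITGA5 with ITGB1 is the classical fibronectin receptor. ITGAV pairs with ITGB5, ITGB6 or ITGB8 to bind matrix proteins with an RGD motif, and its ITGB6 and ITGB8 pairs activate latent TGF-beta.

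A level is the log2 processed signal of a probe minus the 75th percentile of log2 signal on its array. Levels of different probes are not set against each other, since probes differ in brightness. A probe is called above background where at least 50% of its spots were marked so by the scanner software. No difference between single arrays has a replicate check, and the small number of arrays limits how precise any value is. In bulk RNA, fewer cells with a transcript and less of it per cell cannot be told apart. The ± values below are SDs between the spots of a probe on 1 array, which is printing error and no measure of biological spread. Between 82.0% and 91.4% of all probes were above background on an array, with the lowest share for non-target shRNA and the highest for the empty vector. The targeted mRNA lay at 45.8% of the control mean with PARN shRNA, 54.2% with CNOT7, 63.0% with CNOT6L, 74.3% with NOC and 89.6% with CNOT6 shRNA, in each case its lowest of the 7 arrays. The arrays shared 1 slide and 1 scan, on which the control, PARN and CNOT6 arrays formed row 1 and the CNOT6L, CNOT7 and NOC arrays row 2. Image extraction fell on 2 days, with the NOC array alone on the other day.

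Of the 16 squamous and epithelial markers listed, 12 were above background on all arrays, among them SOX2, EPCAM, KRT6A, DSC3, PKP1 and the basal keratins KRT15 and KRT17. The other 4 were not. TP63 was above background on 2 arrays, KRT5 on 4, KRT14 on 1 and DSG3 on none, and TP63 and KRT14 had their highest level with the empty vector. Of 8 fibroblast markers, COL3A1 and LUM were above background on no array and 5 were on all. Of 6 endothelial markers 5 were above background on all arrays, as were the 5 leukocyte markers with a probe.

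Promoter windows are shown for the subunits that stood apart most. ITGA2 and ITGA6 had their lowest levels on the same arrays, and ITGB6 was at background on most arrays. Each window runs from 250 bases before to 50 bases after an annotated start in RefSeq (GRCh38.p14), 5′ to 3′ on the gene's strand. Capitals mark GGGCGG, the core GC box, on either strand. The ITGA2 window is chr5:52989102-52989401, plus strand, and the ITGA6 window, the more CG-rich of a pair in the table, is chr2:172427336-172427635, plus strand. The ITGB6 window is chr2:160200223-160200522, minus strand.
ITGA2: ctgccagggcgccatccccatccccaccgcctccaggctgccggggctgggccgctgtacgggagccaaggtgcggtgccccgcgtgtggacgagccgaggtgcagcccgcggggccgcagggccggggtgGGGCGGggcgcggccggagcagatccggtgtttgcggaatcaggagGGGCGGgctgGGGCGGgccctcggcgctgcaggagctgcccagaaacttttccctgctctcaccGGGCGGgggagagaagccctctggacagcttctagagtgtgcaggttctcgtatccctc
ITGA6: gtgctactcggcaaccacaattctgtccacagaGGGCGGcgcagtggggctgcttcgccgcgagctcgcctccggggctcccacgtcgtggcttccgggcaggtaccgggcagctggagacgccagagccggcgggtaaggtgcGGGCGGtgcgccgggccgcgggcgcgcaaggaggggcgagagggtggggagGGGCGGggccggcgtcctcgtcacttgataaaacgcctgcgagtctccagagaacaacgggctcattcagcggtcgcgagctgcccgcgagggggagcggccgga
ITGB6: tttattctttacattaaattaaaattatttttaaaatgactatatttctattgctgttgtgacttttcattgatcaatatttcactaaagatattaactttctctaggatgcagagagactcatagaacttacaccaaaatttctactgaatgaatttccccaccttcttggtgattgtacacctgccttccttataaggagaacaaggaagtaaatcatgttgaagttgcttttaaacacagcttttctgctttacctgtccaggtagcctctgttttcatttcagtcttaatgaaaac

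GGGCGG occurred 4 times in the ITGA2 window, 3 times in the ITGA6 window and 0 times in that of ITGB6, and 45.0% of 35116 promoter windows in the table held it. The ITGA2 and ITGA6 windows were 72.7% and 72.0% GC with 27 and 38 CG dinucleotides. The ITGB6 window was 31.7% GC with 0 CG, against medians of 58.7% and 14 over all windows. Neither TATAAA, held by 11.5% of all windows, nor TGANTCA, the AP-1 motif, held by 7.71%, was found in these windows on either strand. In the other windows of the set, TGANTCA occurred once, in that of ITGA5, and TATAAA occurred 1 time in the other ITGA6 window and 3 times in 1 of the 2 ITGB1 windows. ITGA3 and ITGB4 have no window in the table.

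Of the 11 integrin probes, 9 were above background on all 7 arrays. ITGA2 was above background on 5 arrays, all but those of PARN and CNOT6 shRNA, and ITGB6 only on the empty-vector and CNOT6 arrays. The 75th percentile of signal was lowest on the CNOT6 array (1366), then on the PARN array (2181), and was 2315 to 3986 on the others. The part of array brightness in the ITGA2 background calls, and in the low ITGA6 levels on the PARN and CNOT6 arrays, was not tested. From the lowest to the highest array, the 9 probes spanned 0.32 (ITGB1) to 1.05 (ITGA5) log2, with a median span of 0.74. Over all 33742 probes above background on every array the median span was 0.71. The 2 control arrays differed by a median of 0.39 log2 over the 9 integrin probes and 0.29 over all of those probes.

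**Figure D1:**
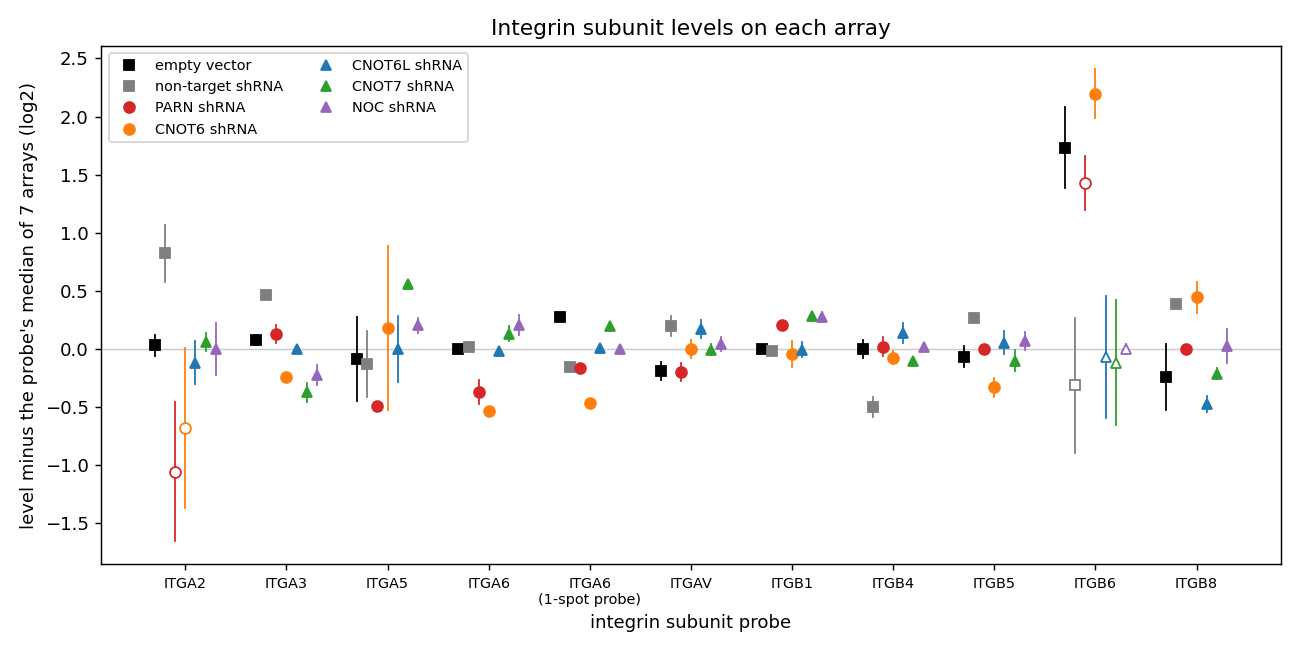
Level of each integrin probe on each array, minus the probe's median over the 7 arrays (log2, vertical axis), with bars for the SD between spots and open symbols where the probe was not above background. ITGA2 and ITGB6, the dim probes, spread over 1.88 and 2.51 log2, while the other probes stayed within 1.05.

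Among the laminin receptors, ITGA6 gave the clearest pattern. On its 2-spot probe (A_23_P210176) the level was 0.56 ± 0.02 with the empty vector, 0.58 ± 0.03 with non-target shRNA, 0.19 ± 0.10 with PARN, 0.02 ± 0.01 with CNOT6, 0.54 ± 0.03 with CNOT6L, 0.69 ± 0.07 with CNOT7 and 0.77 ± 0.09 with NOC shRNA. The PARN and CNOT6 arrays lay below the other 5, and the control arrays differed by 0.02. The other ITGA6 probe (A_33_P3231447), printed on 1 spot, read -0.57 with the empty vector, -0.99 with non-target shRNA, -1.0 with PARN, -1.30 with CNOT6, -0.83 with CNOT6L, -0.65 with CNOT7 and -0.84 with NOC shRNA. It put the same arrays lowest, but its PARN and non-target values were within 0.01 of each other and its controls were 0.43 apart. Over the 7 arrays the probes had a Pearson r of 0.77, a description of values that share the arrays and their scaling. ITGB4, the hemidesmosome partner of ITGA6, read 0.93 ± 0.08 with the empty vector, 0.43 ± 0.09 with non-target shRNA, 0.95 ± 0.08 with PARN, 0.86 ± 0.06 with CNOT6, 1.07 ± 0.08 with CNOT6L, 0.83 ± 0.03 with CNOT7 and 0.95 ± 0.03 with NOC shRNA. Here a control was the array apart: the non-target array was lowest by 0.40, while the other 6 arrays lay within 0.24 of each other. ITGA3, which pairs with ITGB1, read -4.86 ± 0.03 with the empty vector, -4.46 ± 0.01 with non-target shRNA, -4.80 ± 0.08 with PARN, -5.17 ± 0.01 with CNOT6, -4.93 ± 0.02 with CNOT6L, -5.30 ± 0.08 with CNOT7 and -5.15 ± 0.08 with NOC shRNA. The non-target array was highest, and the CNOT6, NOC and CNOT7 arrays lay lowest, within 0.15 of each other.

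ITGA2, the collagen-binding subunit, was the only subunit called in any comparison of an shRNA with both controls. On its probe (A_32_P178800) the level was -7.12 ± 0.09 with the empty vector, -6.33 ± 0.24 with non-target shRNA, -8.21 ± 0.60 with PARN, -7.83 ± 0.69 with CNOT6, -7.27 ± 0.18 with CNOT6L, -7.09 ± 0.08 with CNOT7 and -7.15 ± 0.22 with NOC shRNA. It was not well above background on the PARN and CNOT6 arrays, where its spots also agreed least. The empty-vector, CNOT6L, CNOT7 and NOC arrays lay within 0.18 of each other. ITGB1, the shared partner of ITGA2, ITGA3, ITGA5 and ITGA6, varied least of the integrin probes. It read -0.51 ± 0.03 with the empty vector, -0.53 ± 0.04 with non-target shRNA, -0.30 ± 0.03 with PARN, -0.55 ± 0.11 with CNOT6, -0.52 ± 0.06 with CNOT6L, -0.23 ± 0.03 with CNOT7 and -0.24 ± 0.04 with NOC shRNA, over 9 spots, or 8 on the NOC array. The PARN, CNOT7 and NOC arrays lay 0.21 or more above the other 4, which were within 0.04 of each other.

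ITGA5, the fibronectin receptor subunit, had close controls and a wide range. It read -4.28 ± 0.36 with the empty vector, -4.32 ± 0.29 with non-target shRNA, -4.68 ± 0.02 with PARN, -4.01 ± 0.70 with CNOT6, -4.19 ± 0.29 with CNOT6L, -3.63 ± 0.03 with CNOT7 and -3.99 ± 0.07 with NOC shRNA. CNOT7 was highest and PARN lowest, but on 4 of the arrays its spots were 0.29 or more apart in SD. The arrays between those ends therefore have no settled order. Nor is CNOT7 settled above CNOT6, as their gap of 0.38 was less than the CNOT6 SD of 0.70.

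The RGD-binding subunits had their lowest levels on different arrays. ITGAV, the common alpha subunit, read 0.53 ± 0.08 with the empty vector, 0.91 ± 0.09 with non-target shRNA, 0.52 ± 0.08 with PARN, 0.71 ± 0.08 with CNOT6, 0.88 ± 0.08 with CNOT6L, 0.71 ± 0.05 with CNOT7 and 0.76 ± 0.06 with NOC shRNA, over 10 spots. The controls were 0.39 apart, with 4 of the 5 shRNA arrays between them and the PARN array 0.01 below the empty vector. ITGB5 read 0.27 ± 0.09 with the empty vector, 0.60 ± 0.02 with non-target shRNA, 0.33 with PARN, 0.00 ± 0.08 with CNOT6, 0.39 ± 0.10 with CNOT6L, 0.23 ± 0.09 with CNOT7 and 0.40 ± 0.08 with NOC shRNA. The CNOT6 array was lowest by 0.23 and the non-target array highest. ITGB8 read -2.88 ± 0.28 with the empty vector, -2.25 ± 0.01 with non-target shRNA, -2.64 ± 0.01 with PARN, -2.19 ± 0.13 with CNOT6, -3.11 ± 0.07 with CNOT6L, -2.85 ± 0.04 with CNOT7 and -2.61 ± 0.14 with NOC shRNA. Its controls were 0.63 apart, and only the CNOT6 array lay above both controls and the CNOT6L array below both.

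ITGB6, the epithelial partner of ITGAV whose promoter window held no CG, was dim on its probe (A_23_P154217). It read -7.07 ± 0.35 with the empty vector and -6.60 ± 0.21 with CNOT6 shRNA, the 2 arrays where it was above background. On the others it read -9.11 ± 0.58 with non-target shRNA, -7.37 ± 0.23 with PARN, -8.87 ± 0.53 with CNOT6L, -8.92 ± 0.54 with CNOT7 and -8.80 ± 0.05 with NOC shRNA, none of them well above background. For folds, such a dim side was replaced by the dimmest value that any probe above background had on its array, unless its own value was higher. A fold from a replaced side is a lower bound, and one from a dim side's own reading is an estimate. ITGB6 with CNOT6 shRNA was then at least 3.67-fold higher than with non-target shRNA, where its value was replaced. Against the shRNAs of slide row 2, which kept their own dim readings, the smallest estimate was 4.58-fold higher. With the empty vector it was at least 2.66-fold higher than with non-target shRNA. This was the only integrin probe past 2-fold between the controls. Over all probes 17.4% were at least 2-fold higher with the empty vector than with non-target shRNA, and 0.717% were lower.

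To ask which subunits change upon silencing of each deadenylase, a probe had to lie at least 2-fold above both control arrays, or 2-fold below both, to be called. PARN silencing gave 1 integrin call, ITGA2, lower by 2.12-fold against the empty vector and 3.68-fold against non-target shRNA (background over all probes 0.482% lower, 0.319% higher). Its level there was its own reading at background, with an SD of 0.60 between spots, so these folds are estimates. The call was lost with quantile normalization and with normexp background correction (0 calls under each). Normexp adds an offset of 50, larger than every ITGA2 signal, which shrinks the differences of so dim a probe. With CNOT6 shRNA (0.281% lower, 0.42% higher over all probes), CNOT6L shRNA (0.796% and 0.295%), CNOT7 shRNA (1.05% and 0.41%) and NOC shRNA (1.37% and 0.535%), 0 integrin probes were called. At 1.5-fold, ITGA2 was also lower with CNOT6 shRNA, 1.63-fold and 2.83-fold below the controls, again on a reading at background (1.36% of all probes lower). ITGA5 was higher with CNOT7 shRNA at this threshold, by 0.65 and 0.69 log2 (1.8% of all probes higher).

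Below those thresholds the directions against both controls were mixed. PARN silencing put ITGB1 and ITGB4 above both controls, as for 23.4% of all probes, and ITGA2, ITGA5, ITGAV and both ITGA6 probes below, as for 28.2%. ITGB4 lay only 0.02 log2 above the nearer control, and ITGAV and the 1-spot ITGA6 probe only 0.01 below it. With CNOT6 shRNA, ITGA5, ITGB6 and ITGB8 lay above both controls (40.5% of all probes), ITGA5 and ITGB8 by less than the SD between their spots. Another 6 probes lay below, those of ITGA2, ITGA3, ITGB1, ITGB5 and ITGA6 (22.1% of all probes), ITGB1 by less than the SD between its spots. The 5 comparisons share both control arrays.

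**Figure D2:**
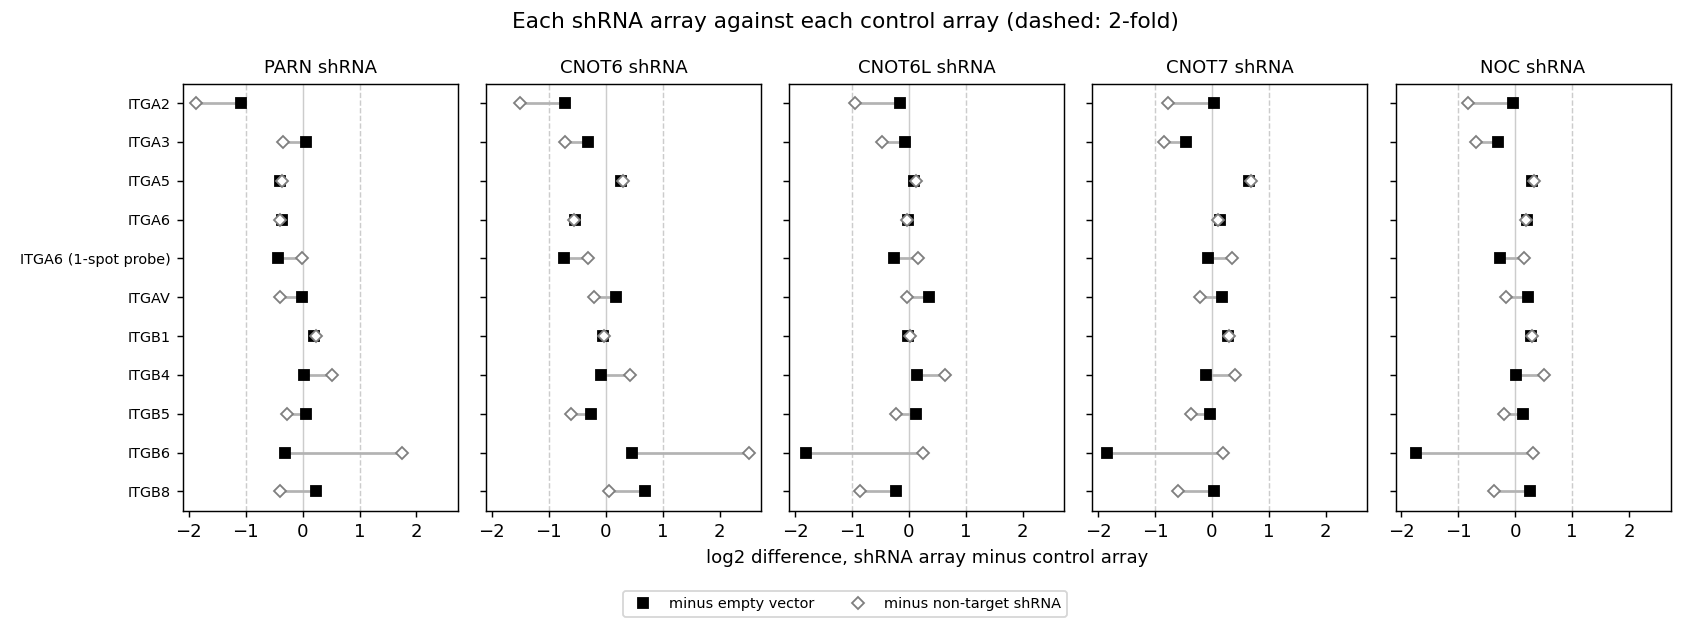
Difference of each shRNA array from the empty-vector array (filled squares) and the non-target array (open diamonds), log2, for each integrin probe, with dashed lines at 2-fold and no bound set for dim probes. Both symbols lie past 2-fold only for ITGA2 with PARN shRNA, and for ITGB6 the controls pull the symbols over 2 log2 apart.

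Arrays of slide row 2 have no control beside them, so each was also set against its row mates. No integrin probe differed 2-fold from both mates on the CNOT6L array (over all probes 0.955% higher, 0.331% lower), the CNOT7 array (0.254% and 0.0892%) or the NOC array (0.273% and 0.22%). ITGA5 came nearest, at 0.56 and 0.36 log2 higher with CNOT7 shRNA than with CNOT6L and NOC shRNA. ITGB8 with CNOT6L shRNA lay 0.26 and 0.50 below its mates.

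The 5 shRNA arrays were then compared with the 2 control arrays in a limma fit over 38004 probes. The spread it uses lies between unlike shRNAs and unlike control plasmids. No integrin probe passed, and neither did any other probe (0% called, smallest adjusted p 0.473 in limma), with 1420 probes, 3.74%, at an unadjusted p under 0.05. All 11 integrin probes were above that p. ITGA2 was -0.79 (95% interval -1.81 to 0.24), ITGA3 -0.41 (-0.97 to 0.14), ITGB4 0.25 (-0.09 to 0.59), ITGA5 0.20 (-0.42 to 0.82) and ITGB1 0.15 (-0.17 to 0.48), as log2 differences of shRNA minus control. The intervals of ITGAV, ITGB1, ITGB4, ITGB5 and both ITGA6 probes stayed within 1.51-fold in either direction, and that of ITGB6, mostly at background, reached 3.57-fold. The values of ITGA2 and ITGA3 depended on the control used: without the empty-vector array they were -1.18 and -0.61, and without the non-target array -0.39 and -0.22. For no integrin probe did the 5 shRNA arrays all lie on 1 side of both controls, which held for 2.74% of all probes above and 3.57% below. The median difference was -0.12 over the 11 integrin probes and -0.01 over all probes tested. Without the empty-vector array, ITGA2, ITGA3, ITGAV and ITGB5 lay below the remaining control on all 5 shRNA arrays, as did 12.9% of all probes, and ITGB4 lay above it, as did 28.1%. Without the non-target array the 1-spot probe of ITGA6 lay below the empty vector on all 5 (24.5% of all probes below, 8.98% above).

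**Figure D3:**
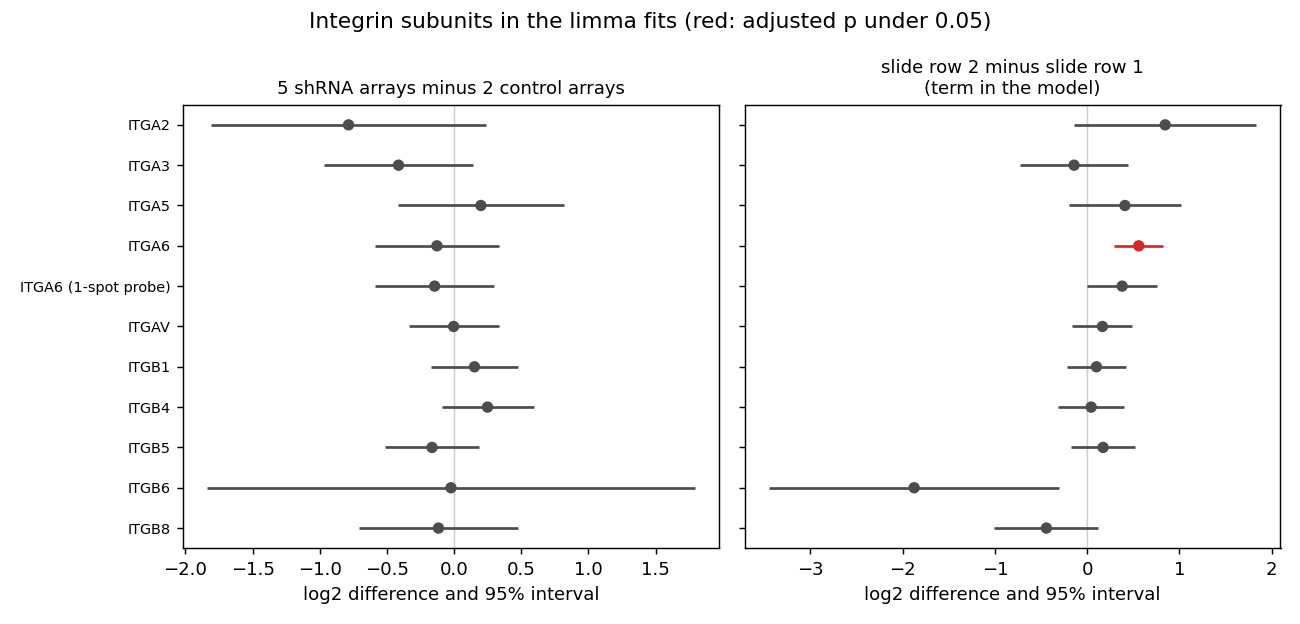
Log2 difference of each integrin probe with its 95% interval in limma, for 5 shRNA minus 2 control arrays (left) and for the slide-row term (right). Every interval on the left, from the fit without slide row, crosses 0, and on the right the 2-spot ITGA6 probe has an adjusted p of 0.041. ITGA2 and ITGB6 include values below background.

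Slide row was a term in a further limma model, beside shRNA against control. As both controls lie in row 1, the term compares the CNOT6L, CNOT7 and NOC arrays with the PARN and CNOT6 arrays, and slide row and shRNA cannot be told apart. Beside this term, shRNA against control rests on the PARN and CNOT6 arrays. It was then -0.46 for the 2-spot ITGA6 probe (95% interval -0.75 to -0.17, limma unadjusted p 0.006, adjusted p 0.925), against -0.13 without the term. For ITGA2 it was -1.29 (-2.37 to -0.21, limma unadjusted p 0.024, adjusted p 0.925), an estimate from readings at background on the PARN and CNOT6 arrays. Of all probes 0% passed in limma with the term and 3.67% had an unadjusted p under 0.05. Within row 1 alone the same differences had limma unadjusted p of 0.023 for ITGA6 and 0.122 for ITGA2, beside 1.09% of all probes under 0.05. ITGA6 was the only integrin gene to pass: its 2-spot probe was 0.56 log2, or 1.47-fold, higher in row 2 (95% interval 0.29 to 0.82, limma adjusted p 0.041), where 3.88% of all probes were called, 1.28% higher and 2.6% lower, and 23.2% had an unadjusted p under 0.05. Its 1-spot probe was 0.38 higher (-0.00 to 0.76, limma adjusted p 0.219). The ITGA6 call held without either control array, which cannot move the difference, as it rests on the 5 shRNA arrays. It was lost without any 1 of those 5 arrays (0.48 to 0.64 log2). It was also lost in the values of the deposited series table (0.62 log2, limma adjusted p 0.130). Those values are centred per probe, so the variance trend in limma had no signal level to follow. ITGB6 was not well above background on any row 2 array or on the PARN array, and no difference is read from its term. ITGA2, at background on the PARN and CNOT6 arrays, had an estimate 1.80-fold higher in row 2 (95% interval -0.14 to 1.83 log2, limma adjusted p 0.278). For ITGB8 the difference was -0.44 (-1.0 to 0.12, limma adjusted p 0.318). The other subunits were between -0.14 (ITGA3) and 0.41 (ITGA5), with limma adjusted p of 0.387 or above. The median of the term was 0.17 over the integrin probes and -0.11 over all probes. Over all probes it moved to 0.95 without scaling, -0.35 with normexp, 0.01 with quantile normalization and -0.04 in the series table, where the integrin medians were 1.22, 0.09, 0.15 and 0.23. The ITGA2 difference turned to -0.61 with normexp, whose offset outweighs the signal of this probe.

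The controls, which share row 1 with the PARN and CNOT6 arrays, were set into the same picture. The PARN and CNOT6 arrays both lay below all of the other 5 arrays, controls included, for ITGA2 and for both ITGA6 probes. This held for 5.61% of all probes, while 8.07% had both arrays above the other 5, and the split was chosen after the values were seen. For the 2-spot ITGA6 probe the gap to the lowest of the other arrays was 0.35 with PARN and 0.52 with CNOT6 shRNA, against 0.02 between the controls. For its 1-spot probe these gaps were 0.01 and 0.31, and for ITGA2, at background on both arrays, they were 0.93 and 0.56, or 0.03 and 0.14 with quantile normalization. The 2-spot ITGA6 probe kept both arrays below the other 5 with quantile normalization, without scaling, with normexp and in the series table. Without scaling the same order also held for ITGA2, ITGA3, ITGA5, ITGAV, ITGB5, ITGB8 and the 1-spot ITGA6 probe. The PARN and CNOT6 arrays had the lowest 75th percentiles of signal, so that setting does not set ITGA6 apart. With normexp the order was lost for ITGA2, whose PARN and CNOT6 values lay 0.41 and 1.05 above the lowest of the other arrays. It was also lost for the 1-spot ITGA6 probe with PARN shRNA, 0.11 above that array. For ITGA2 the normexp offset outweighs the signal, so its order under normexp decides nothing.

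**Figure D4:**
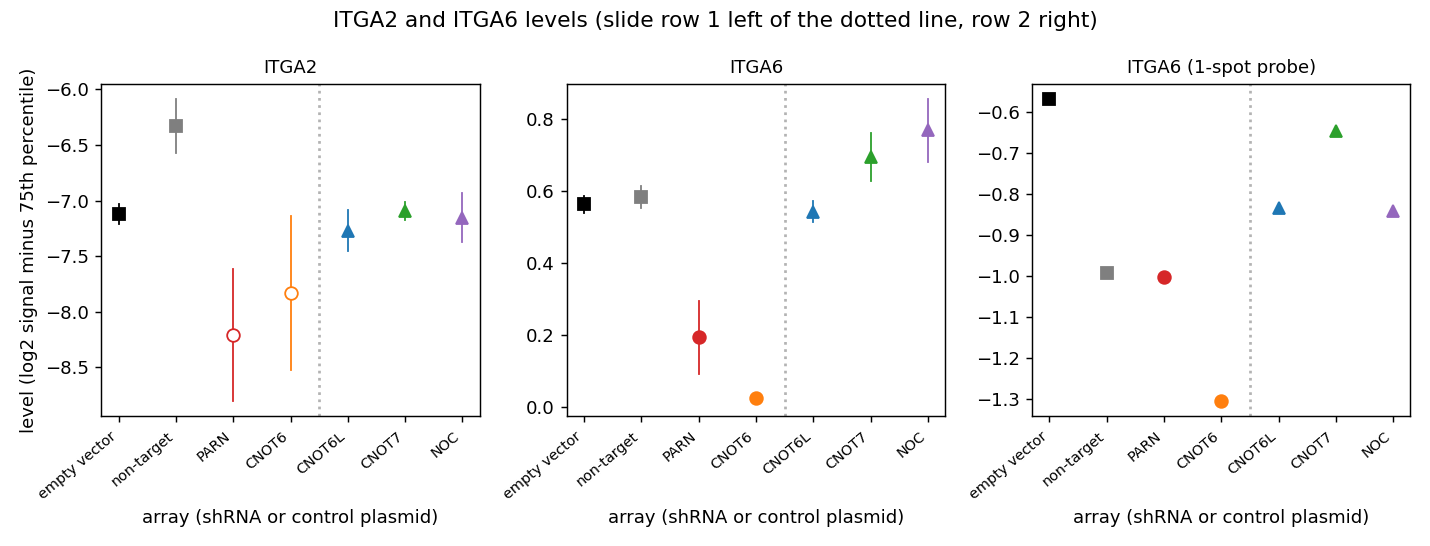
Levels of ITGA2 and of both ITGA6 probes on each array (log2 signal minus the array's 75th percentile), with bars for the SD between spots, open symbols where not above background, and slide row 2 right of the dotted line. The PARN and CNOT6 arrays are lowest in each panel, by 0.01 for the 1-spot ITGA6 probe with PARN shRNA, an order that normexp changes for ITGA2 and for that probe. The normexp offset outweighs the ITGA2 signal.

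Genes that work with these subunits were described from fixed lists, each gene by its lead probe. In the limma fit of shRNA against control, 0 genes of any list were called (limma adjusted p 1.0 for each gene named here). Against both controls at 2-fold, 2.65% of all named genes were called with at least 1 shRNA, and of the lists 1 gene was, KRT6A. The examples are the up to 3 genes of each list with the largest difference of shRNA minus control, in log2. Of the 12 laminin and basement membrane ligands, all above background on every array, COL4A6 had 0.41, COL4A1 -0.38 and NPNT, the nephronectin ligand, 0.37. Of 11 fibronectin, vitronectin and other RGD ligands, CCN1 had -0.40, TGFB2 -0.35 and CCN2 -0.35. The 22 focal adhesion proteins, which link integrins to actin, had a median of -0.08, with BCAR1 at -0.28, ILK at -0.27 and TNS3 at -0.26. The 12 genes of integrin trafficking and inactivation had a median of 0.01, with ITGB1BP1 at 0.21, DAB2 at -0.21 and RAB21 at 0.14. The medians of the ligand lists were 0.08 for the basement membrane and -0.08 for the RGD ligands, beside -0.01 over all probes tested.

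Hemidesmosome partners and tetraspanins had 7 of 8 genes with a probe, and CD63 had none. COL17A1, the transmembrane collagen of the hemidesmosome, had a difference of 0.64 ± 0.86 (SE), and its levels ran from -8.79 with non-target shRNA to -5.31 with the empty vector. DST, the hemidesmosome plakin, had 0.13 and the tetraspanin CD9 -0.11. Among the 16 other integrin subunits, 13 were above background on all arrays and ITGB2, the leukocyte beta subunit, on none. ITGA9 had 0.74, ITGA11 0.61 and ITGAD 0.56, and the median of the list was 0.19. In all 3 the non-target array was the lowest of the 7.

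In the slide-row term, which cannot be told apart from the shRNAs, 1 gene passed in each of 3 lists, all higher in row 2. Over all probes 1.28% were called higher and 2.6% lower. No probe passed in the series table, which holds no signal level for the variance trend in limma. Far fewer of all probes passed when any 1 shRNA array was left out. COL4A2 was 0.75 higher (limma adjusted p 0.044), SRC, the adhesion kinase, 0.62 higher (0.035), and KRT6A, a keratin of activated squamous epithelium, 1.13 higher (0.033). For KRT6A the CNOT6L array read -0.78, the NOC array -0.90 and the CNOT7 array -1.40. The term sets these against the PARN array at -2.38 and the CNOT6 array at -1.93. The controls read -1.84 and -1.92.

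Markers of cell types were summed on each array, and up to 3 genes of each list are given by their log2 difference of shRNA minus control. In the squamous and epithelial list the summed level ran from 7.73 to 8.27 log2, with TP63 at -1.46, KRT5 at 0.66 and KRT15 at 0.41. Bright probes such as those of KRT19 (levels 6.20 to 6.88) and KRT18 (5.58 to 6.06) dominate this sum. TP63 and KRT5, above background on only some arrays, add little to it. Without the empty-vector array TP63 had -0.09 and KRT15 0.75, and without the non-target array -2.82 and 0.07. Summed fibroblast markers ran from -1.59 to -0.76, with FAP at 0.45, THY1 at -0.26 and PDGFRB at 0.19. The summed endothelial markers ran from -2.82 to -1.80, with TEK at 0.45, PECAM1 at 0.25 and CLDN5 at 0.21. Leukocyte markers summed to 2.96 to 3.90, with CD14 at 0.42 and CD3E at 0.16. For the fibroblast, endothelial and leukocyte lists the lowest sum was on the non-target array and the highest on the CNOT6 array. The squamous and epithelial sum was also highest on the CNOT6 array. The sum of the other integrin subunits was likewise highest there (2.90) and lowest on the non-target array (2.12). Sums of the ligand, focal adhesion, trafficking and hemidesmosome lists were highest on other arrays. The CNOT6 array is also 1 of the 2 on which ITGB6 was above background, and the part of these markers in the ITGB6 difference was not tested.

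As a description of shared patterns, the named genes most like ITGA5 and ITGB4 were taken by Pearson r over the 7 arrays, among 16470 genes above background on all of them. For ITGA5, the subunit with the widest span of those above background throughout, they were VIRMA (r = 0.99), RNASEH2A (0.99), RFC4 (0.97) and EEF1AKMT1 (0.97). For ITGB4 they were SNX1 (0.98), BAIAP2L2 (0.98), CDKL2 (0.98), SPOCK2 (0.97) and THOC2 (0.97). With 7 points that share arrays and scaling, 48 genes had r above 0.9 with ITGA5 and 94 with ITGB4. The 4 genes named for ITGA5 spanned 0.38 to 0.56 log2, less than ITGA5 itself.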

How the data were processed

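The authors' scanner output was made with Agilent Feature Extraction 10.7.3.1, per the file headers, and holds several intensity measures per spot. The processed intensity, which the software corrects for background, was used here. The deposited series table holds log2 values, processed signals centred per array and per probe, and served as an alternative. The centring per probe is removed in differences between arrays, while the centring per array stays in them. Probe means in the series values hold no signal level, which the variance trend in limma uses. Limma calls from them are therefore not like for like with the others.

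Control spots and outlier spots were left out, spots of a probe were averaged as log2, and the 75th percentile of each array was subtracted. Probes with every spot flagged on an array (96) were dropped, which left 42309. Symbols came from a RefSeq gene table (GRCh38.p14), used for names alone. Groups came from the sample titles.

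The fits used limma 3.58.1 in R 4.3.3 (lmFit, eBayes with trend, two-sided, Benjamini-Hochberg over all 38004 probes above background on at least 2 arrays, threshold 0.05) and were tested on simulated data. For a single shRNA no test was run, apart from an alternative in limma with the controls as 1 arm. Its lone shRNA array is assumed to vary like the controls.

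The integrin genes and all lists were chosen with earlier results of these data known. All probes of the 10 subunits are named. Of the lists, the genes named are those called against both controls and up to 3 per list with the largest absolute difference in limma. Some genes that this rule names are not reported here. A gene with several probes is given by the probe above background on most arrays, then the highest mean. COL4A2, SRC and the basal markers named by their background calls fall outside that rule and were chosen after their values were seen. Alternatives were quantile normalization, no scaling, normexp with an offset of 50, the series table, kept outlier spots, other filters on dim probes, 1.5-fold and 4-fold thresholds, no trend, slide row as a term, within row 1, and leaving out each array. The normexp offset is larger than every ITGA2 and ITGB6 signal, so normexp values of these probes decide nothing.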

Additional observations from a re-analysis of the deposited data

How the results depend on the processing

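With 1 array per group, replication limits every value, and dim probes (ITGA2, ITGB6) rest partly on readings at background or on bounds. No paired analysis was possible because every title carries the same replicate number and each group has 1 array. Causes of the changes below were not tested. Over the integrin values of shRNA against control, 179 of 202 alternatives kept direction and side of the threshold and 23 turned direction. For the slide-row term 127 of 152 did, 9 turned direction, 6 lost a call and 10 gained one. For the other named genes 461 of 488 kept direction and 27 turned.

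The median span of the integrin levels moved from 0.74 to 1.87 log2 without scaling. ITGA2 with PARN shRNA was the only integrin probe called, and the count fell to 0 with quantile normalization, normexp, a 4-fold threshold and limma with the controls as 1 arm. With CNOT6 shRNA 5 integrin probes were called without scaling, 1 at 1.5-fold, and 0 to 2 when a control was left out. With CNOT6L, CNOT7 and NOC shRNA leaving out a control gave 0 to 1 each, the 1 being ITGB6 without the non-target array, and with CNOT7 shRNA 1.5-fold gave 1. Between the controls, 1 integrin probe became 0 with normexp, 3 at 1.5-fold and 0 at 4-fold. Over all probes, shRNA against control gave 3 calls without scaling, and 0 to 61 when an array was left out, 61 without the empty vector and 1 without non-target shRNA. The number of integrin probes with shRNA and control arrays apart was 0, and 0 to 6 when an array was left out: 6 without the empty vector (ITGB6, at background, among them), 2 without PARN shRNA, and 1 without non-target or CNOT7 shRNA.

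The slide-row count of 1476 became 18686 without scaling, 13796 with normexp and 0 in the series table. The series values, centred per probe, hold no signal level for the variance trend in limma. Omitting a control cannot change the differences in the slide-row term, only their error. Leaving out an array gave 46 to 5236: 5236 and 5166 without the empty vector or non-target shRNA, and 56, 137, 53, 46 and 64 without PARN, CNOT6, CNOT6L, CNOT7 or NOC shRNA. Integrin probes called in it were 8 without scaling, 2 with normexp, 0 in the series table, and 0 to 2 when an array was left out, with ITGB6, at background in row 2, called beside ITGA6 with normexp and without either control.

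Directions that turned were as follows, in log2. In the slide-row term, ITGA2 became -0.61 with normexp, ITGA3 0.11 with quantile normalization, 0.91 without scaling and -0.33 to 0.045 when an array was left out, and ITGA5 -0.041 with normexp. ITGB8 became 0.61 without scaling. Leaving out an array gave -0.025 to 0.23 for ITGB1 and -0.017 to 0.10 for ITGB4.

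For shRNA against control, slide row as a term and the fit within row 1 gave the same values, with -1.29 for ITGA2 and -0.46 for the 2-spot ITGA6 probe (-0.79 and -0.13 without them), and these turned: -0.046 for ITGA5, 1.10 for ITGB6, 0.15 for ITGB8, 0.044 for CCN2, -0.021 for ITGB1BP1, 0.035 for DAB2, -0.0097 for KRT5, -0.27 for KRT6A, -0.10 for PDGFRB and -0.10 for CD3E. ITGAV became 0.0022 with quantile normalization, 0.0050 with normexp and 0.013 in the series table. ITGB6 became 0.028 with quantile normalization and 0.0016 with normexp, and COL17A1 -0.029 with normexp. Leaving out an array gave -0.36 to 0.068 for the 1-spot ITGA6 probe, -0.20 to 0.19 for ITGAV, -0.0013 to 0.50 for ITGB4, -0.33 to 0.0038 for ITGB5, -1.05 to 1.0 for ITGB6 and -0.43 to 0.20 for ITGB8. For the other genes it gave -0.84 to 0.082 for COL4A1, -1.10 to 2.39 for COL17A1, -0.42 to 0.20 for CD9, -0.13 to 1.25 for ITGAD, -0.30 to 1.62 for KRT5 and -0.037 to 0.40 for PDGFRB. The marker ranges were -0.0035 to 0.90 for FAP, -1.10 to 1.59 for PECAM1, -0.37 to 1.26 for TEK, -0.42 to 0.74 for CD3E and -0.031 to 0.86 for CD14. For each range over an shRNA-against-control value the ends came from leaving out a control array, except the low end of PDGFRB, without CNOT6L shRNA.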
